A study of Mus musculus with 31 samples.

Results

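The kidney arrays of mice that received modIVIg with lipopolysaccharide (LPS) were compared with those of mice that received IVIg with LPS, using the non-normalised bead signals of 4 arrays per treatment, 8 of the 31 arrays of the series. LPS, a cell wall component of Gram-negative bacteria, provokes an inflammatory response throughout the body. IVIg is immunoglobulin for intravenous infusion, and modIVIg is a modified form of it whose modification the labels do not describe. All animals were male C57BL/6J mice aged 20 to 30 weeks, and the doses, the times and the number of animals behind each array are not given in the labels. The 3 kidney arrays of mice given vehicle with LPS entered the fit to estimate the spread, so that 11 kidney arrays were normalised together, and no kidney without LPS is among them. The comparison asks whether the modified immunoglobulin leaves a different transcript profile in the LPS-exposed kidney than IVIg does. Where the arrays of a group do not come from separate animals, the p values measure only the spread between these samples.

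In the kidney, LPS acts through Toll-like receptor 4 on resident immune, endothelial and tubular cells. It induces cytokines, interferon-stimulated genes and acute phase proteins, while stressed tubules lose transporters and gain injury markers such as Havcr1 (KIM-1). Immunoglobulin G acts on immune cells mainly through Fc receptors, and antigen-presenting cells, including those of the renal interstitium, carry MHC class II molecules.

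A probe was kept when the scanner software called it detected (detection p under 0.01) on at least 3 of the 11 arrays, and each gene was represented by 1 probe, which left 8544 features, 7910 of them with a gene symbol. Markers of the labelled tissue were present: of 9 kidney markers on the array, 8 were detected on every array (Umod, Slc12a1, Slc34a1, Kap, Aqp1, Aqp2, Slc12a3 and Miox), while Lrp2 was detected on 1 of 11 arrays. Of the liver markers, Alb was detected on 0 of 11 arrays, Apoa1 on 3 and Ttr on all 11.

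The kidney arrays fell into a set of 6 (replicates 1 and 2 of each treatment) and a set of 5 (replicates 3 and 4). The first principal component of the 11 arrays carried 71.9% of the variance, and 4449 features (52.1%) passed between the sets at an adjusted p under 0.05. Of the features, 384 were detected on all 6 arrays of the first set and on none of the 5 of the other, and 0 the other way round. Dld, a mitochondrial dehydrogenase subunit, was at 11.48 or above on the log2 scale on every array of the first set and between 5.03 and 5.45 in the other. Because both treatments have 2 arrays in each set, the split was kept as a block, and changes are also given within each set. The labels do not say what the sets are.

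IVIg replicate 3 also stood apart from the other arrays, with a score of 47.1 on the second principal component, where no other array went beyond 15.8 in size. The mean level of the immediate early genes was 8.82 in it and 10.70 to 10.75 in the other IVIg arrays, and that of the interferon-gamma GTPases 10.79 against 12.15 to 12.29. Values without this array are given beside gene lists that it moves and beside some of the genes. A gene given without such a value may also depend on it.

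No feature passed between modIVIg and IVIg (limma, 0 of 8544, or 0% at an adjusted p under 0.05; smallest adjusted p = 0.189). At an unadjusted p under 0.05 there were 804 features (9.41%), of which 359 were higher and 445 lower with modIVIg. Of all features, 4089 (47.9%) had a higher mean with modIVIg and 4455 (52.1%) a lower one. Counts of higher or lower list members below are to be read against these shares. The arrays of the treatments did not overlap in 204 features (2.39%). The median standard error of a log2 change was 0.15, and the number of arrays limits the precision. Without IVIg replicate 3 the number that passed was again 0, with 858 features at an unadjusted p under 0.05. None of the genes below passed, so their values describe these arrays, and a feature that did not pass is not shown to be equal between the treatments.

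**Figure D1:**
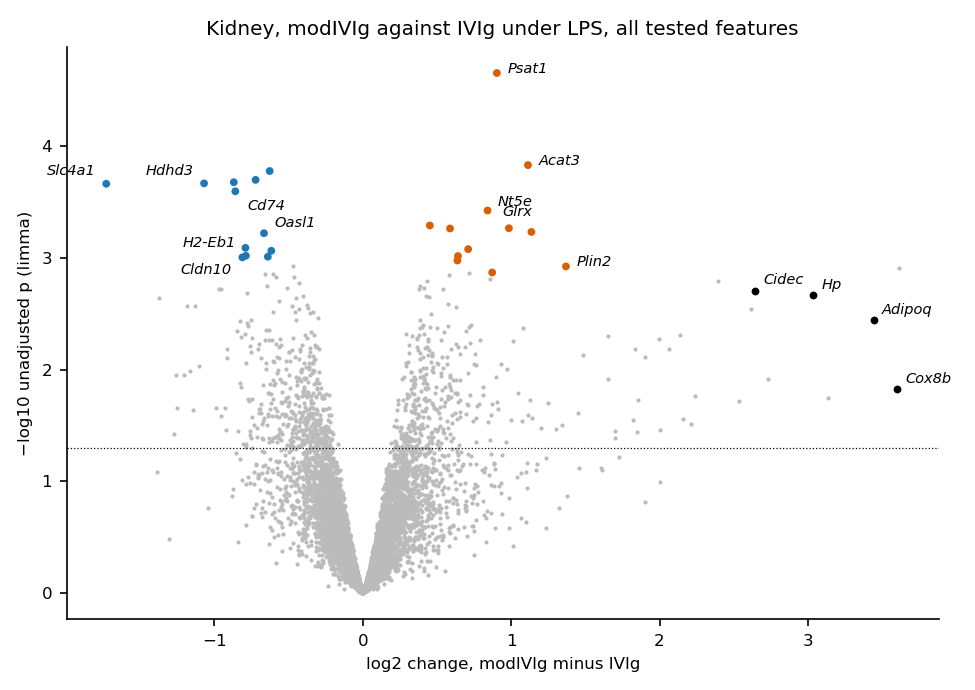
Each point is 1 of the 8544 features, with its log2 change (modIVIg minus IVIg, kidney) on the horizontal axis and −log10 of its unadjusted limma p on the vertical axis, the dotted line marking p of 0.05. Orange and blue points are the 12 genes with the highest and the 12 with the lowest moderated statistic and black points are adipocyte and acute phase genes. Psat1 is highest, with an adjusted p of 0.189, and Slc4a1 lies farthest left.

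Psat1, phosphoserine aminotransferase of the serine synthesis pathway, had the strongest statistic of all features. Its level on the log2 intensity scale was 11.50, 11.32, 11.53 and 11.33 in IVIg replicates 1 to 4 and 12.55, 12.16, 12.47 and 12.12 in modIVIg replicates 1 to 4, against 11.94, 11.84 and 11.87 with vehicle. Every modIVIg array lay above every vehicle array, and every IVIg array lay below them. The means were 11.42 ± 0.11 (SD, n = 4) and 12.33 ± 0.22 (SD, n = 4), a log2 change of 0.90 ± 0.12 (SE), with 0.94 in replicates 1 and 2 and 0.87 in replicates 3 and 4. Psat1 passed with the authors' deposited log2 values (limma, adjusted p = 0.0399) and with a trended, robust prior (limma, adjusted p = 0.0469).

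The list of integrated stress response and serine synthesis genes, to which Psat1 belongs, had 16 of 21 measured members higher and a median change of 0.14, against −0.01 over all features. Next to Psat1 stood Eif4ebp1, an inhibitor of cap-dependent translation, at 0.60 ± 0.27, the stress hormone Fgf21 at 1.06 ± 0.55 and the transcription factor Atf3 at 1.38 ± 0.84. The list's median was 0.03 without IVIg replicate 3, where Atf3 was at 0.25, whereas Psat1 was at 0.95. Eif4ebp1 ran from 0.30 to 0.86 and Fgf21 from 0.62 to 1.57 without each array in turn.

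Of the other genes with high statistics, Nt5e (CD73, which forms adenosine from AMP) was at 11.81, 11.74, 11.93 and 12.31 with IVIg and at 12.94, 12.59, 12.69 and 12.93 with modIVIg in replicates 1 to 4. The modIVIg arrays all lay above the IVIg arrays, the closest being IVIg replicate 4 and modIVIg replicate 2. The log2 change was 0.84 ± 0.16 (adjusted p = 0.358), and it was 0.79 without IVIg replicate 3.

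Glrx, the cytosolic glutaredoxin that reverses protein glutathionylation, was at 12.56, 12.62, 12.46 and 13.28 with IVIg and at 13.83, 13.28, 13.88 and 13.86 with modIVIg. The groups met at IVIg replicate 4 and modIVIg replicate 2, and the change was 0.98 ± 0.20, or 0.80 without IVIg replicate 3. Acat3, a cytosolic acetyl-CoA acetyltransferase, was detected on 2 of 4 IVIg arrays and on all 4 modIVIg arrays, with a change of 1.11 ± 0.19 and no overlap between the groups.

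Plin2, the coat protein of cytosolic lipid droplets, was at 10.85, 10.54, 9.13 and 10.33 with IVIg and at 11.86, 11.56, 11.49 and 11.42 with modIVIg. All modIVIg arrays were higher, and IVIg replicate 3 was the lowest array. The change was 1.37 ± 0.31, or 1.03 without that array. Angptl4, a lipoprotein lipase inhibitor induced by fatty acids, was at 0.75 ± 0.22 and Pdk4, the kinase that turns off pyruvate dehydrogenase, at 1.17 ± 0.58. Both come from the list of fatty acid oxidation and ketogenesis genes, in which 20 of 31 members were higher with a median of 0.06, and 24 with a median of 0.15 without IVIg replicate 3. Pdk4 was at 0.43 and Angptl4 at 0.53 without that array. The mitochondrial isomerase Eci1 in that list was at 0.30 ± 0.15.

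The remaining higher genes by rank were Mospd1 (0.45 ± 0.09), the cytochrome Cyp2d22 (0.59 ± 0.12), Ilrun (0.64 ± 0.14), Csgalnact1, which starts chondroitin sulphate chains (0.64 ± 0.14), and Chil3, a chitinase-like protein of myeloid cells (0.87 ± 0.20). Lgi2 was detected on no IVIg or vehicle array and on all 4 modIVIg arrays. Its signals still overlapped, with IVIg replicate 4 at 6.39 and modIVIg replicate 2 at 6.34. In the mean Lgi2 was at least 1.41-fold higher against the lowest detected signal of the IVIg arrays (limma, adjusted p = 0.367). Adgrg2 was likewise detected on no IVIg or vehicle array and on 3 modIVIg arrays, too dim for a fold. Both passed the detection filter only through modIVIg arrays. Within each of the sets of arrays all 12 of these genes were higher with modIVIg. They were chosen by their statistic over these same arrays, so this is no independent support.

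**Figure D2:**
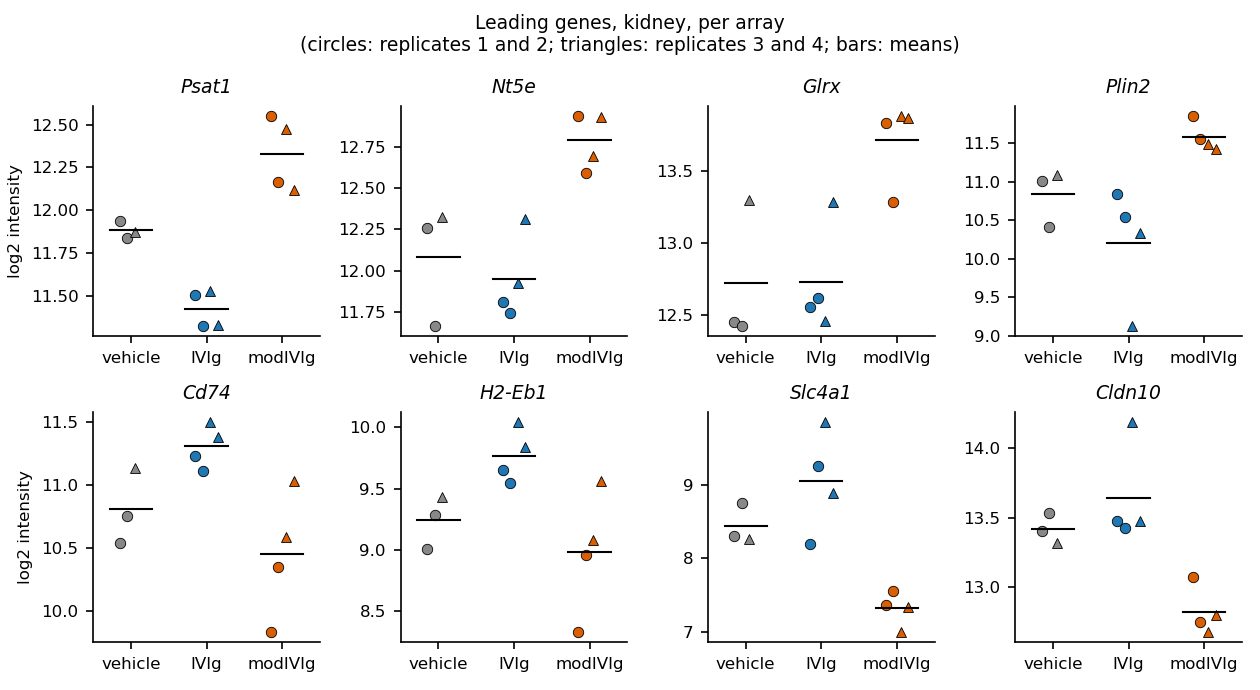
Log2 intensity of 8 genes on each of the 11 kidney arrays by treatment, with circles for replicates 1 and 2, triangles for replicates 3 and 4 and bars for the means. Psat1, Nt5e and Plin2 are higher on every modIVIg array than on any IVIg array, and Cd74, Slc4a1 and Cldn10 are lower, while the groups overlap or meet for Glrx and H2-Eb1.

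Transcripts of MHC class II presentation were lower with modIVIg. This list holds the class II chains, the invariant chain Cd74, the peptide loading chains, the class II transactivator Ciita and a few accessory genes. Of 9 measured members 8 were lower, against 52.1% of all features, and the median log2 change was −0.63. Of the 9, 5 had an unadjusted p under 0.05 and were lower, against 5.21% of all features, and 0 passed. The median was −0.83 in replicates 1 and 2 and −0.33 in replicates 3 and 4, and 7 of the 9 were lower in both sets, against 29.9% of all features.

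Class II genes share promoter elements, a conserved X box bound by the RFX complex and a Y box, an inverted CCAAT box bound by NF-Y, through which CIITA acts. The promoters of the chain genes H2-Eb1 and H2-Aa are shown with that of H2-DMb1 to let the shared elements be compared. Among the class II promoters read, only that of H2-DMb1 held an exact match to the X box letters. They come from RefSeq (GRCm38.p6) and run from 250 bases before to 50 bases after the annotated start, 5′ to 3′ on the gene's strand. They are H2-Eb1 at chr17:34305617-34305916 (plus strand), H2-Aa at chr17:34287774-34288073 (minus strand) and H2-DMb1 at chr17:34152941-34153240 (plus strand), and capitals mark matches to the letters searched.
H2-Eb1: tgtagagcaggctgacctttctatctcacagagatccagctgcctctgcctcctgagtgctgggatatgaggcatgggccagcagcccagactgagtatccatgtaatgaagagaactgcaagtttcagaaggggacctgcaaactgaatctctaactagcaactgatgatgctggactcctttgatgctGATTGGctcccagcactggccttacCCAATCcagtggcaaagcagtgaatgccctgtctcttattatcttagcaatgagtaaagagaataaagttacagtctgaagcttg
H2-Aa: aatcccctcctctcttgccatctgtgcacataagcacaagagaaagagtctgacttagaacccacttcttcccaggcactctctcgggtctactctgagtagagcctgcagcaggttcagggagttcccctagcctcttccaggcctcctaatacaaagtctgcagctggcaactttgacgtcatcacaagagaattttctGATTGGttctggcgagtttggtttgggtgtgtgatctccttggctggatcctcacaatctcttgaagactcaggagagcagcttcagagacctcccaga
H2-DMb1: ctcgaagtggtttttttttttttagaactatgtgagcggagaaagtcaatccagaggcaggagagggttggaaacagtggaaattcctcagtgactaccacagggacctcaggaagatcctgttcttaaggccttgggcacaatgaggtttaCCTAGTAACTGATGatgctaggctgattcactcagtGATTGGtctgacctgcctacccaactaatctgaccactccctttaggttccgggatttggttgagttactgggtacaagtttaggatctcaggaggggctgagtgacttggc
The letters searched on both strands were GATTGG for the core of the Y box and a longer X box motif, with no overlap between them in these windows. Of the 9 measured class II list members, 5 had a promoter that could be read. Of these, 4 held the Y box core and 1, H2-DMb1, the X box letters. The Y box match of H2-DMa lay only in promoter 2 of that gene, at −199 from the start. Among the 32851 promoters read from RefSeq, 16.1% held the Y box core and 0.289% the X box letters. A match describes the letters of the window only.

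Cd74, the invariant chain that guides class II molecules to the endosome, was at 11.23, 11.11, 11.50 and 11.38 with IVIg and at 9.83, 10.34, 10.59 and 11.03 with modIVIg, against 10.54, 10.75 and 11.13 with vehicle. The modIVIg arrays all lay below the IVIg arrays. The log2 change was −0.86 ± 0.16 (adjusted p = 0.271), with −1.08 in replicates 1 and 2 and −0.63 in replicates 3 and 4, and the second Cd74 probe gave −0.81.

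H2-Eb1, the beta chain of I-E, was at 9.65, 9.54, 10.04 and 9.84 with IVIg and at 8.33, 8.96, 9.08 and 9.57 with modIVIg. Only modIVIg replicate 4 reached into the range of the IVIg arrays. The change was −0.79 ± 0.17 (adjusted p = 0.370). H2-Ab1, the beta chain of I-A, was at −0.63 ± 0.18, with the modIVIg arrays from 10.51 to 11.82 and the IVIg arrays from 11.56 to 12.15.

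H2-Aa, the alpha chain of I-A, was at 11.14, 11.12, 7.22 and 6.28 with IVIg and at 9.77, 10.44, 5.70 and 6.03 with modIVIg. Its level was far lower in replicates 3 and 4 than in replicates 1 and 2 under both treatments. In replicates 1 and 2 both modIVIg arrays were below both IVIg arrays, with a change of H2-Aa of −1.02, and in replicates 3 and 4 only IVIg replicate 3 detected it. The loading chains H2-DMa and H2-DMb1 were at −0.58 ± 0.17 and −0.36 ± 0.18. Ciita was at −0.82 ± 0.39, with −1.54 in replicates 1 and 2 and −0.11 in replicates 3 and 4. The costimulator Cd86 was at −0.14 and cathepsin S (Ctss) at 0.01.

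The class II median was −0.69 without IVIg replicate 3, with 9 of 9 members lower, and −0.40 without modIVIg replicate 1. Macrophage and dendritic cell markers, which name the cells that carry most class II, had 6 of 11 members higher and 5 lower, with a median of 0.01. The median was 0.16 without IVIg replicate 3 and −0.17 without IVIg replicate 4. The leading members by size of the statistic were Aif1, a gene of microglia and macrophages, at −0.31 ± 0.16, Cd14 at 2.00 ± 1.11 (0.50 without IVIg replicate 3), Cd52 at −0.19 ± 0.17 and the complement gene C1qb at −0.26 ± 0.24. In whole tissue, fewer cells of a type and less RNA per cell cannot be told apart. The part of cell numbers in the class II values was not tested.

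Of the type I interferon-stimulated genes 24 of 30 were lower, against 52.1% of all features, with a median of −0.15. Of the 30, 7 were lower at an unadjusted p under 0.05, against 5.21% of all features. Only 9 of the 30 were lower in both sets of arrays, near the share of 29.9% over all features. Oasl1, an oligoadenylate synthetase-like protein of the antiviral response, was at 12.28, 12.55, 12.39 and 11.82 with IVIg and at 11.73, 11.86, 11.36 and 11.42 with modIVIg. Only modIVIg replicate 2, at 11.86, exceeded an IVIg array. The change was −0.67 ± 0.14 (adjusted p = 0.367), and it was −0.62 and −0.71 in the sets of arrays.

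The mitochondrial nucleotide kinase Cmpk2 was between 12.48 and 12.57 on the modIVIg arrays and between 12.62 and 13.22 on the IVIg arrays, a change of −0.40 ± 0.12. Phf11d was at −0.43 ± 0.14 and Ifit3, which binds viral RNA in a complex, at −0.23 ± 0.10. The list's median was −0.33 in replicates 1 and 2 and 0.08 in replicates 3 and 4, and −0.26 without IVIg replicate 3, which had the lowest mean level of the list, at 10.58 against 10.99 to 11.26 in the other IVIg arrays. The exceptions were led by Ifi27l2a at 0.81.

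Chemokines showed both directions. Of 31 cytokines and chemokines 21 were lower, with a median of −0.14. Ccl4, a chemokine of activated macrophages, was at 10.49, 11.41, 10.60 and 10.59 with IVIg and at 9.76, 10.28, 9.75 and 10.21 with modIVIg. The groups did not overlap, and the change was −0.77 ± 0.21. Cxcl14 was at −0.82 ± 0.23, Ccl5, a chemokine that attracts T cells, at −0.44 ± 0.15 and the macrophage growth factor Csf1 at −0.55 ± 0.25. Csf1 was at −1.14 in replicates 1 and 2 and at 0.03 in replicates 3 and 4. The neutrophil attractant Cxcl1 was at 1.01 and Ccl7 at 0.86. The list's median was −0.35 without IVIg replicate 3.

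Genes of Fc receptors and IgG handling had 5 of 11 members higher and 6 lower, with a median of −0.01, or −0.07 without IVIg replicate 3. Fcgr2b, the inhibitory Fc gamma receptor, was at 9.77, 9.73, 9.87 and 9.62 with IVIg and at 9.07, 9.13, 9.69 and 9.75 with modIVIg. It was lower with modIVIg in replicates 1 and 2 (−0.65) and near 0 in replicates 3 and 4 (−0.02), a change of −0.34 ± 0.14 over all. Pigr, which carries polymeric immunoglobulin across epithelia, was at 0.32 ± 0.14. The common signalling chain Fcer1g was at −0.30 ± 0.18 and the phospholipase Plcg2 at −0.28 ± 0.19. The neonatal Fc receptor Fcgrt was at 0.11, and the activating receptors Fcgr3 and Fcgr4 were at 0.34 and −0.01.

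Upstream of these genes, 11 of 20 members of the TLR4 receptor complex and its adaptors were higher, with a median of 0.05, and without IVIg replicate 3 it was 9 of 20 and −0.02. Cd14, the LPS co-receptor, was at 13.66, 13.40, 8.11 and 13.92 with IVIg and at 14.26, 13.72, 14.51 and 14.60 with modIVIg. IVIg replicate 3 was far below every other array, so that the change of 2.00 ± 1.11 became 0.50 without it. Tab2, an adaptor of the kinase TAK1, was at 0.29 ± 0.12, the adaptor Tirap at 0.65 ± 0.34 and the inhibitory receptor Sigirr at −0.36 ± 0.17. Among NF-kB subunits and feedback inhibitors 14 of 21 were higher with a median of 0.03, and without IVIg replicate 3 the median was −0.23 with 18 of 21 lower. Traf1 was at −0.64 ± 0.22, the inhibitor Nfkbib at 0.33 ± 0.20, Tnfaip2 at −0.61 ± 0.38 and Tnip2 at 0.42 ± 0.27. Tirap ran from 0.22 to 0.82 and Tnip2 from 0.12 to 0.65 without each array in turn.

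Transcripts of the thick ascending limb, distal tubule and collecting duct were mostly lower with modIVIg, 31 of 34 measured members, with a median of −0.33. Of these, 9 had an unadjusted p under 0.05, against 5.21% of all features, and 24 were lower in both sets of arrays, against 29.9%. Slc4a1, the anion exchanger of intercalated cells and red cells, was at 8.20, 9.25, 9.85 and 8.89 with IVIg and at 7.37, 7.56, 6.998 and 7.34 with modIVIg, against 8.31, 8.75 and 8.26 with vehicle. The modIVIg arrays were below all others. The change was −1.73 ± 0.31 (adjusted p = 0.265). Over the red cell transcripts, which include Slc4a1, mean levels were 8.66 to 9.06 with IVIg and 8.33 to 8.86 with modIVIg, and the globin gene Hbb-b2 was at 0.13; their part in the Slc4a1 value was not tested.

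Cldn10, a claudin of the paracellular pathway in the thick ascending limb, was at 13.47, 13.42, 14.18 and 13.47 with IVIg and at 13.07, 12.75, 12.68 and 12.80 with modIVIg. The groups did not overlap, and IVIg replicate 3 was the highest array. The change was −0.81 ± 0.18, or −0.61 without that array, and the other 3 kept probes of Cldn10 gave −0.80 to −1.22.

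Slc12a1, the NKCC2 cotransporter that furosemide blocks, was at −0.70 ± 0.20, and its other kept probes gave −0.78, −0.73 and 0.00. The vitamin D-dependent calbindin S100g was at −0.45 ± 0.15. Bsnd, a chloride channel subunit, was at −1.04 and the water channels Aqp2 and Aqp3 at −0.38 and −0.61, whereas Trpm6, a magnesium channel, was at 0.53. Of the kidney markers named earlier, Slc12a3 of the distal tubule was at 0.003, and its other kept probes at 0.02. Umod of the thick ascending limb was at −0.18, and its other kept probe at −0.28. The fall was thus not shared by every segment marker. Mean levels over the 34 members were 9.49 to 9.98 with IVIg and 9.28 to 9.47 with modIVIg, and IVIg replicate 3 was the highest at 9.98. Without it the median was −0.18, with 29 of 34 lower.

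Of 38 proximal tubule transporters and brush border genes, 27 were lower, against 52.1% of all features, with a median of −0.11. Of the 38, 8 were lower at an unadjusted p under 0.05, against 5.21% of all features. The glucose transporter Slc2a2 was at 10.12, 10.24, 10.74 and 9.34 with IVIg and at 8.64, 9.79, 9.10 and 8.50 with modIVIg. The groups overlapped through IVIg replicate 4. The change was −1.10 ± 0.34 and, without IVIg replicate 3, −0.78. The neutral amino acid transporter Slc6a19 was at −0.62 ± 0.21, the urate transporter Slc22a12 at −0.49 ± 0.17 and Slc16a9 at −0.99 ± 0.36. Slc16a9 ran from −1.28 to −0.51 without each array in turn. Without IVIg replicate 3 the list had 21 of 38 members lower and a median of −0.02.

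All 8 measured podocyte markers had a lower mean with modIVIg, with a median of −0.30. They were led by the transcription factor Wt1 (−0.43 ± 0.19), the phosphatase Ptpro (−0.51 ± 0.25), the growth factor Vegfa (−0.23 ± 0.14) and the sialomucin Podxl (−0.19 ± 0.12). The mean level of the list was highest in IVIg replicate 3, at 9.48 against 8.74 to 8.96 in the other IVIg arrays. Without that array 6 of 8 were lower and the median was −0.15.

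**Figure D3:**
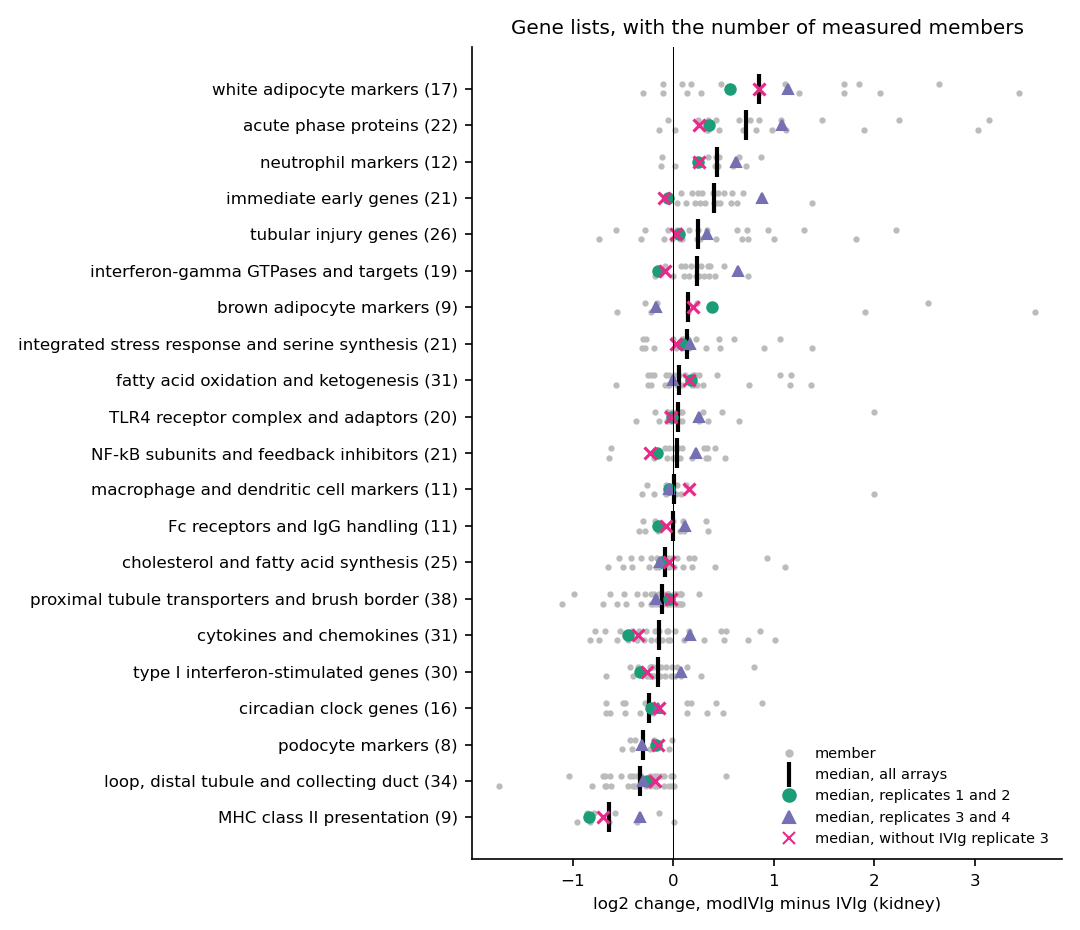
Log2 changes (modIVIg minus IVIg, horizontal axis) of the measured members of 21 gene lists, 1 list per row with its number of members in brackets. Grey points are members, black bars list medians over all arrays, circles and triangles medians within replicates 1 and 2 and within replicates 3 and 4, and crosses medians without IVIg replicate 3. Among members that passed the detection filter MHC class II has the lowest median (−0.63) and white adipocyte markers the highest (0.85, or 0.11 over those detected on all 11 arrays), and the medians of immediate early genes and interferon-gamma GTPases change side without IVIg replicate 3.

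The largest differences on the log2 scale were in genes of fat cells. Of 25 white adipocyte markers on the array 17 passed the detection filter, several of them only through arrays where they are high, and 14 of these 17 were higher with modIVIg, with a median of 0.85. Over the 8 members detected on all 11 arrays the median was 0.11, and with no detection filter it was 0.26. Adipoq, the adipocyte hormone adiponectin, was at 7.71, 7.68, 7.31 and 5.28 with IVIg and at 9.21, 11.55, 10.13 and 10.87 with modIVIg. The vehicle arrays lay at 7.65, 11.75 and 10.83, so vehicle replicate 1 was at the level of the IVIg arrays and the others at that of the modIVIg arrays. The change was 3.44 ± 0.91 (adjusted p = 0.40).

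Cidec, a lipid droplet protein, was at 5.69, 6.21, 5.47 and 4.94 with IVIg, where 1 of 4 arrays detected it, and at 7.49, 8.91, 7.92 and 8.56 with modIVIg. The groups did not overlap, and the fitted change of 2.64 ± 0.63 rests on signals not above background on the other 3 IVIg arrays. Plin4, another lipid droplet coat, was at 2.06 ± 0.60, and the lipase Pnpla2 at 0.47 ± 0.15. Pparg, the master transcription factor of adipocytes, was detected on no IVIg array and on 2 modIVIg arrays, as was Adig.

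Brown adipocyte markers went both ways, 5 of 9 higher and 4 lower, with a median of 0.14 (0.39 in replicates 1 and 2 and −0.17 in replicates 3 and 4). Over the 5 members detected on all 11 arrays the median was −0.16. Cox8b, a cytochrome oxidase subunit of brown fat, was at 5.01, 5.37, 7.50 and 4.96 with IVIg and at 7.39, 10.82, 9.02 and 10 with modIVIg. Only IVIg replicate 3 reached the lowest modIVIg array. Cox8b, Cidea and Ucp1, the uncoupling protein that defines brown fat, were each detected on 1 of 4 IVIg arrays, so the sizes of their fitted changes (3.60 ± 1.22, 2.54 ± 0.91 and 1.904 ± 1.23) rest on signals not above background on the other IVIg arrays. The muscle-type carnitine transferase Cpt1b, which kidney also expresses, was at −0.28 ± 0.16.

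Acute phase proteins were higher on the same arrays. Of 22 that passed the detection filter, some without detection on any IVIg array, 20 were higher, with a median of 0.73. Of the 22, 9 were higher at an unadjusted p under 0.05, against 4.20% of all features. Because members could pass the filter through arrays where they are high, these counts are no independent support. Over the 15 detected on all 11 arrays the median was 0.46. Hp, haptoglobin, which binds free haemoglobin and is also made by adipocytes, was at 10.58, 10.10, 9.30 and 10.01 with IVIg and at 11.98, 13.78, 12.82 and 13.55 with modIVIg. The vehicle arrays were at 10.09, 13.64 and 13.46, low in vehicle replicate 1 as for Adipoq. The change was 3.03 ± 0.74 (adjusted p = 0.375).

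Serpina3n, a serine protease inhibitor, was at 10.78, 10.42, 8.33 and 10.70 with IVIg and at 11.48, 12.41, 11.73 and 12.21 with modIVIg, without overlap, a change of 1.9 ± 0.57. Saa3, a serum amyloid A made outside the liver, was at 1.48 ± 0.44, and Itih4, detected on 1 of 4 IVIg arrays, at 2.24 ± 0.78. Orm1 and Orm2, the orosomucoids, were detected on no IVIg array and on 4 and 2 modIVIg arrays. The median of the list was 0.36 in replicates 1 and 2 and 1.08 in replicates 3 and 4, and 0.25 without IVIg replicate 3.

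White adipocyte markers had mean levels of 7.72 to 8.18 with IVIg and 8.49 to 9.42 with modIVIg, so the groups did not overlap, and 8.13 to 9.94 with vehicle. With this mean as a covariate in the fit the change of Hp was 1.11, that of Saa3 0.88 and that of Serpina3n 1.04. Adipoq was at 0.88 and Cox8b at 0.18. Adipoq is itself part of the mean, so a smaller value for it was set in advance. Because the mean did not overlap between the treatments, the fit cannot separate it from treatment, and no cause was tested. Under the same fit Psat1 was at 1.04, Plin2 at 1.66, Cd74 at −1.13, H2-Eb1 at −1.09 and Slc4a1 at −1.97. The class II median was −0.91. The acute phase median was 0.46, and that of the distal nephron genes −0.30.

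**Figure D4:**
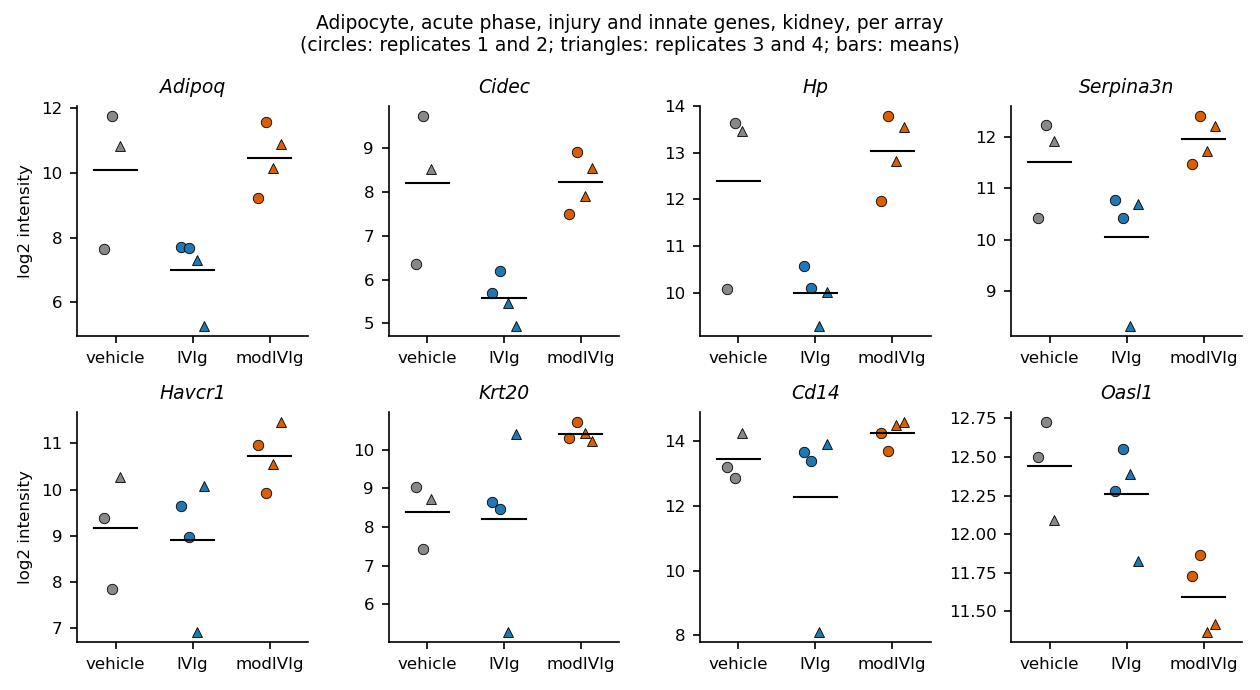
Log2 intensity of 8 genes on each kidney array, with symbols and bars as for the leading genes. Adipoq, Cidec, Hp and Serpina3n are higher on all modIVIg arrays than on all IVIg arrays, with vehicle replicate 1 low. IVIg replicate 3 is the lowest array for Havcr1, Krt20 and Cd14.

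Neutrophil markers had 10 of 12 members higher, with a median of 0.44. Of the 12, 6 were higher at an unadjusted p under 0.05, against 4.20% of all features. Chil3 was at 7.52, 7.38, 7.09 and 7.26 with IVIg and at 8.99, 7.96, 7.90 and 7.90 with modIVIg. All modIVIg arrays were higher, modIVIg replicate 1 most. The decoy receptor Il1r2 was at 0.72 ± 0.21, and the calprotectin subunits S100a8 and S100a9 were at 0.65 ± 0.21 and 0.46 ± 0.14. Their S100 proteins also count among the acute phase proteins above. Without IVIg replicate 3, which had the lowest mean level of the list (7.23), the median was 0.26.

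Tubular injury genes were higher in 19 of 26 cases, with a median of 0.24. Of the 26, 5 were higher at an unadjusted p under 0.05, against 4.20% of all features. Havcr1 (KIM-1), a phosphatidylserine receptor of injured proximal tubules, was at 9.64, 8.98, 6.92 and 10.08 with IVIg and at 10.97, 9.92, 10.56 and 11.46 with modIVIg. The groups overlapped, and IVIg replicate 3 was lowest. The change was 1.82 ± 0.71, or 1.01 without that array. Krt20, an intermediate filament of injured tubules, was at 2.21 ± 0.88, or 1.14 without it, the chaperone Clu at 0.63 ± 0.25 and the TWEAK receptor Tnfrsf12a at 1.00 ± 0.39. Tnfrsf12a ran from 0.53 to 1.36 without each array in turn. The adhesion molecule Vcam1 was at −0.57. Without IVIg replicate 3, 14 of 26 were higher and the list's median was 0.03.

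The lists of immediate early genes and interferon-gamma GTPases rested on IVIg replicate 3. All 21 immediate early genes had a higher mean with modIVIg, with a median of 0.41, and without this array 8 of 21 were higher and the median was −0.09. The matrix proteins Ccn1 (0.63 ± 0.18) and Ccn2 (0.41 ± 0.13) were at 0.71 and 0.38 without it, and Jund and Klf4 were at 0.44 ± 0.23 and 0.29 ± 0.16 with it and at 0.22 and 0.14 without it. Of 19 interferon-gamma GTPases and targets 17 were higher, with a median of 0.24, and without the array 4 were higher and the median was −0.09. Irgm1 was at 0.17 ± 0.12, Ifi47 at 0.37 ± 0.27, Gvin1 at 0.27 ± 0.20 and Irgm2 at −0.18 ± 0.14.

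**Figure D5:**
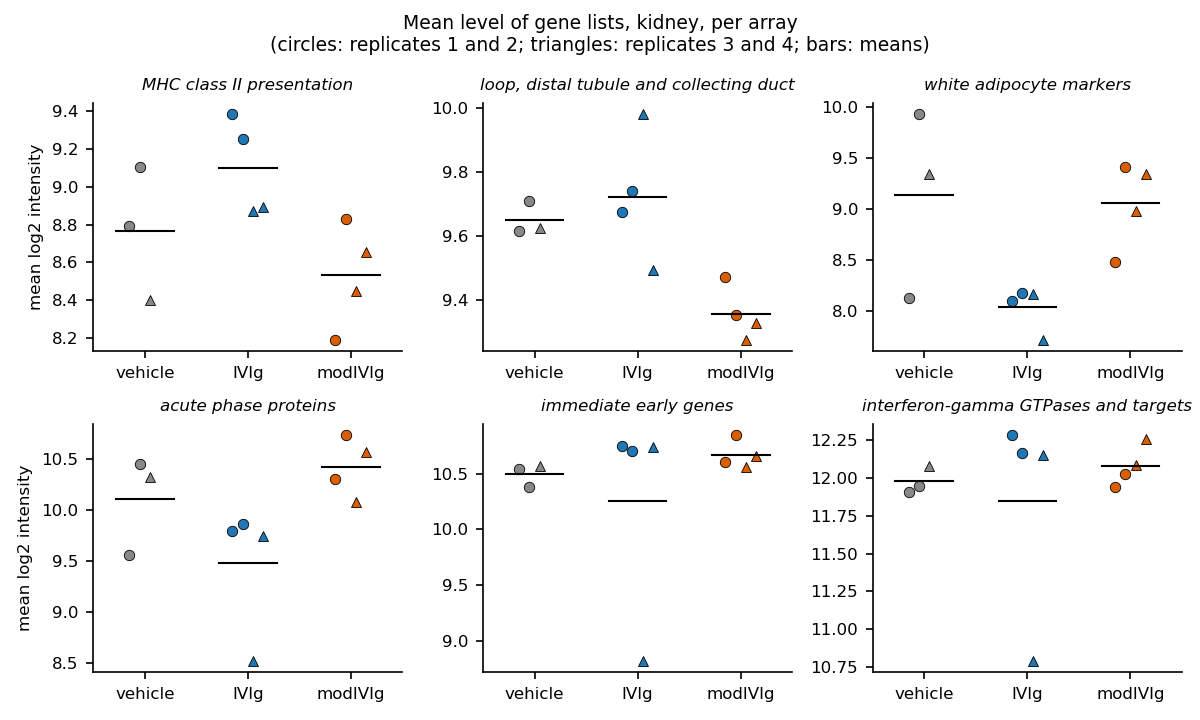
Mean log2 intensity over the measured members of 6 gene lists on each kidney array, with circles for replicates 1 and 2, triangles for replicates 3 and 4 and bars for group means. IVIg replicate 3 lies far below the other arrays for acute phase proteins (8.52), immediate early genes (8.82) and interferon-gamma GTPases (10.79). The white adipocyte level is at most 8.18 on the IVIg arrays and at least 8.49 on the modIVIg arrays.

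Cholesterol and fatty acid synthesis genes were lower in 16 of 25 cases, with a median of −0.09, or −0.045 without IVIg replicate 3. The desaturase Fads1 was between 12.37 and 12.67 with IVIg and between 12.05 and 12.24 with modIVIg, a change of −0.32 ± 0.09. The sterol enzymes Nsdhl and Mvd were at −0.49 ± 0.15 and −0.65 ± 0.26. The desaturase Scd1, which is also a white adipocyte marker here, was at 1.11 ± 0.42. It was at −0.07 with the adipocyte mean as a covariate, a mean of which Scd1 is part. Among 16 circadian clock genes 9 were lower, with a median of −0.24. The median was −0.14 without IVIg replicate 3, −0.12 without IVIg replicate 4, −0.15 without modIVIg replicate 1 and −0.44 with the adipocyte mean as a covariate. The repressor Nr1d2 was at −0.48 ± 0.12, Dbp at −0.67 ± 0.26, Per2 at −0.63 ± 0.27 and the activator Rora at 0.34 ± 0.13.

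The other genes with the lowest statistics belong to no list above. Fermt1, the integrin adaptor kindlin-1 of epithelia, was at 9.79, 9.64, 10.32 and 9.79 with IVIg and at 8.79, 8.84, 9.05 and 9.37 with modIVIg. The groups did not overlap, with a change of −0.87 ± 0.15 (adjusted p = 0.265). Fgfbp3, a binding protein of fibroblast growth factors, was at −0.63 ± 0.11, the calcineurin regulator Rcan2 at −0.64 ± 0.14 and the scavenger receptor Scarf1 at −0.62 ± 0.13.

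Hdhd3, Pdlim4 and Nme6 were detected on no modIVIg array and on 4, 4 and 3 IVIg arrays. Nme6 was otherwise detected on 1 vehicle array, so it passed the detection filter only through the IVIg arrays, where it is high. Its values overlapped, with IVIg replicate 1 at 5.92 below modIVIg replicates 3 and 4 at 6.23 and 6.28. Hdhd3 was lower by a factor of at least 1.36, and Pdlim4 and Nme6 each by at least 1.23, with adjusted p = 0.265, 0.370 and 0.265 in limma. All 3 were brightest on IVIg replicate 3. A second probe of Rcan2 gave −0.24, and all 3 probes of Oasl1 and all 3 of Mospd1 had the sign given above.

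Whether the change differed between the sets of arrays was tested with an interaction term. Of 8544 features 0 (0%) passed, the smallest adjusted p was 0.945, and 294 had an unadjusted p under 0.05. Changes in the sets had the same sign in 56.1% of features, 26.2% higher in both and 29.9% lower in both. The smallest p values belonged to Ydjc, whose change was 0.42 in replicates 1 and 2 and −1.19 in replicates 3 and 4, to the phospholipase Plcb4 (−0.23 and 0.67), Scrn2 (0.47 and −0.68), Hoxb9 (0.75 and −0.65) and the DNA helicase Blm (0.29 and −0.76). Without IVIg replicate 4, where IVIg replicate 3 alone stands for IVIg in that set, 484 features passed.

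The kidney change was set against the change between the same treatments in liver, which has 4 arrays per group. In liver 78 of 7155 features (1.09%) passed, 14 higher and 64 lower. Of these 78, 60 were also measured in kidney, and 48 had the same sign there, against 53.1% of all features measured in both organs. The 47 that were lower in liver had a median of −1.13 there and of −0.17 in kidney, and 39 of them were below 0 in kidney. They were chosen by their liver values, which enlarges the liver median and not the kidney one. The medians therefore do not compare the sizes of change in the organs. Of the 60, 9 had the same sign in kidney at an unadjusted p under 0.05, where 9.41% of all kidney features had such a p in either direction. Across the 6715 features measured in both organs, which are not independent, the changes correlated at 0.132 (Pearson).

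Of the 10 genes with the largest liver changes that were measured in kidney, Slc2a2 was at −1.96 ± 0.40 in liver and −1.10 ± 0.34 in kidney. The others lay between −0.30 and 0.19 in kidney. The choice of these 10 by their liver change likewise enlarges their liver values. Uridine phosphorylase Upp2 was at −2.45 in liver and 0.17 in kidney, and Keg1 at −2.11 and −0.17. The smooth muscle actin gene Acta2 was at −1.57 and 0.02, Ddit4l at −1.53 and −0.14, and Ociad2 at −1.42 and −0.16. The glycerol phosphate dehydrogenase Gpd1 was at −1.40 and −0.30, and the fatty acid hydroxylase Cyp4a31 at −1.40 and 0.19. Of these 10, Plk2 and Bdh1 passed the test of the difference between the organs, described next, and the other 8 did not. Upp2 passed with replicate number as a replicate block (adjusted p = 0.0465 in limma) and without liver IVIg replicate 4 (adjusted p = 0.0472). Ddit4l passed with array weights (adjusted p = 0.0210) and without kidney IVIg replicate 3 (adjusted p = 0.0316).

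The difference between the organs itself passed in 11 of 6715 features (0.164%), in limma over the arrays of both organs. Plk2, a p53-induced kinase, was at −1.51 in liver and −0.05 in kidney, a difference of 1.46 ± 0.16 (adjusted p = 0.000114). Its kidney values were 7.51, 7.52, 7.11 and 7.18 with IVIg and 7.47, 7.52, 7.19 and 6.96 with modIVIg, which overlap. Mdm2, the ubiquitin ligase of p53, was at −1.12 in liver and 0.12 in kidney, a difference of 1.24 ± 0.19 (adjusted p = 0.00664). The ketone body enzyme Bdh1 was at −1.58 and −0.19, a difference of 1.39 ± 0.24 (adjusted p = 0.0158).

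Faah, the hydrolase of endocannabinoids, was at −1.17 in liver and 0.21 in kidney, a difference of 1.38 ± 0.23 (adjusted p = 0.0144), and its other kept probes were at 0.08 and −0.01 in kidney. Cyp2d22 was on opposite sides in the organs, at −0.40 in liver and 0.59 in kidney, a difference of 0.99 ± 0.14 (adjusted p = 0.00318). Without a block for the kidney sets the number was 2. Leaving out 1 kidney array gave 3 without IVIg replicate 1, 6 without IVIg replicate 2, 7 without modIVIg replicate 1 or 4, and 20 without vehicle replicate 1. Leaving out 1 liver array gave 58 without IVIg replicate 3, 18 without IVIg replicate 4 and 6 without modIVIg replicate 1. Bdh1 and Faah did not pass without kidney IVIg replicate 1 (adjusted p = 0.0643 and 0.0526 in limma). Without a block Mdm2, Bdh1 and Faah did not pass (adjusted p = 0.0607, 0.0540 and 0.0607 in limma). Under median scaling Mdm2, Cyp2d22, Bdh1 and Faah did not pass (adjusted p = 0.131, 0.169, 0.115 and 0.115 in limma).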

How the data were processed

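RNA of liver and kidney was measured on Illumina mouse BeadChips with 25697 probes, 1 array per sample. The deposited bead signals are intensity values, neither normalised nor background corrected per the file headers. The deposited detection p-value per probe comes from the scanner software, per the file headers. A further table holds the authors' log2 values, used as an alternative. GenomeStudio 1.9.0, lumi and limma are named, without roles, in the submitters' processing notes.

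The 11 kidney arrays went through neqc (offset 16), which corrects background and quantile normalises, of limma 3.58.1 in R 4.3.3, as were the 12 liver arrays. Of the probes, 23978 have 1 symbol, 0 have several and 1719 none, with symbols updated through RefSeq for 23962. Where several probes of a gene were kept, the brightest on average stood for it. Liver probes had to be detected on 4 arrays. Features were tested with lmFit and eBayes on vehicle, IVIg and modIVIg arrays together, with replicates 1-2 against 3-4 as a block in kidney, and p values were adjusted over all features by the Benjamini-Hochberg method. Values after ± are standard errors unless SD is written. The fit was tested on simulated data.

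Deviations from the group means correlated between same-numbered kidney arrays at 0.587 to 0.849 over 10 pairs. These deviations still hold the split of the arrays into sets, and pairs with different numbers were not compared. The correlations therefore cannot tell a pairing by replicate number from that split, and the labels give no pairing.

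The members, the 47 gene lists and the naming rule were chosen with earlier results of these data known. The rule names the 12 highest and 12 lowest moderated statistics, up to 4 leading members of a described list, the 10 largest liver changes kept in kidney, and the 5 smallest p values of each difference. Other list members were named after their values were seen. Alternatives covered normalisation, the authors' values, detection, probes, arrays left out, weights, prior, block and an adipocyte covariate. Blood arrays were not analysed here.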

Additional observations from a re-analysis of the deposited data

Results flagged for a closer look

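Among 90 groups of 4 arrays (the IVIg and modIVIg levels of 24 leading genes and 21 list means), 10 held an array whose gap to its nearest neighbour took a share of the group's range above Dixon's critical value, which chance passes in about 1 group in 20. IVIg replicate 3 was such an array for 6 lists and 1 gene: it was low in the mean of the immediate early genes (0.973), NF-kB genes (0.939), interferon-gamma GTPases (0.912), acute phase proteins (0.911), integrated stress response genes (0.842) and tubular injury genes (0.830), and high in Cldn10 (0.934). IVIg replicate 4 was low in the mean of white adipocyte markers (0.839). Among modIVIg arrays, replicate 2 was low in Glrx (0.920) and replicate 1 was high in Chil3 (0.938). The level of IVIg replicate 3 entered the results above with and without that array; what sets it apart was not tested.

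The change from IVIg to modIVIg differed between kidney and liver past the threshold of limma's test of the difference for Plk2 (kidney change minus liver change 1.464), Bdh1 (1.387), Faah (1.382), Mdm2 (1.243) and Cyp2d22 (0.988). For the first 4 the liver change was the larger in size, and for Cyp2d22 the changes had opposite signs.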

How the results depend on the processing

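Over 28 other settings of the kidney comparison the count of features that passed was 0, except 1 with the authors' deposited log2 values and 1 with a trended, robust prior (Psat1, at 0.91 and 0.90). The count was 0 without each array in turn. With replicate number as a replicate block, no replicate block or a random block it was 0. At an unadjusted p under 0.05 the count ran from 306 (replicates 3 and 4 alone) to 1339 (no detection filter), and was 325 without a block. With only the 7637 features that differed by under 1 between the sets of arrays, a filter chosen after seeing the data, 0 passed and 737 had an unadjusted p under 0.05. All 664 values of the 24 leading genes under these settings kept their sign. These genes were chosen by their statistic on the same arrays, so the kept sign is no independent support. The interaction count was 0 to 484 without each array in turn, 484 without IVIg replicate 4 (Blm, Plcb4 and Scrn2 among them), and 0 otherwise.

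The count for the organ difference, 11, was 47 with array weights, 26 with replicate number as a replicate block, 18 with IVIg and modIVIg arrays alone, 2 with no replicate block, and 1 with median scaling or with replicates 1 and 2 alone. Without each array in turn it ran from 3 to 58. The liver count of 78 was 180 with replicate number as a replicate block. The causes were not tested.

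In kidney 29 values turned their sign, all of genes that did not pass. Acta2 was at −0.49 with the adipocyte covariate, −0.10 in replicates 3 and 4. With that covariate Upp2 was at −0.38, Ucp1 at −1.44, Scd1 at −0.0655, Cidea at −0.0021, Nfkbib at −0.0292 and Ddit4l at 0.0525. In replicates 1 and 2 Upp2 was at −0.12, Ddit4l at 0.25, Ociad2 at 0.16, Gpd1 at 0.0106, Gvin1 at −0.0544 and Ifi47 at −0.0759. In replicates 3 and 4 Csf1 was at 0.0304, Cyp4a31 at −0.0792 and Irgm2 at 0.056. With array weights Ddit4l was at 0.21 and Ociad2 at 0.0724. Without each array in turn Acta2 ran from −0.101 to 0.132, Cyp4a31 from −0.198 to 0.418, Ddit4l from −0.403 to 0.299, Ociad2 from −0.365 to 0.0845, Plk2 from −0.0735 to 0.0181 and Upp2 from −0.077 to 0.390.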

Other observations

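Glucocorticoid-responsive genes, which respond to the steroid hormones released in endotoxaemia, had 19 of 20 members higher with modIVIg and a median of 0.23, led by Angptl4, the cell cycle inhibitor Cdkn1a (1.30 ± 0.53) and Pdk4. Without IVIg replicate 3 the median was 0.07. Genes of the IL-6 receptor, STAT3 and SOCS feedback were higher in 10 of 12 cases with a median of 0.28, and the median was −0.12 without that array. In metallothionein, haem and iron handling, transferrin (Trf), the iron carrier of plasma, was at 2.14 ± 0.59 (adjusted p = 0.40) and at 2.23 without IVIg replicate 3, while the list's median was 0.14.

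Subunits of the mitochondrial respiratory chain had 32 of 67 members higher and a median near 0 (−0.00), and hypoxia and glycolysis genes 12 of 23 with a median of 0.01. Kidney endothelial genes were lower in 10 of 12 cases with a median of −0.23, and the median was −0.07 without IVIg replicate 3. The lymphoid chemokine receptor Ccr7 was at −0.60 ± 0.18 (adjusted p = 0.40).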
